A study of Homo sapiens with 96 samples.

Results

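Whole-cell input RNA was compared between S-phase windows and asynchronous cells in 12 of the 96 samples of the series, which are all the samples whose titles name whole-cell input RNA. The 10 window samples carry the labels T0-2, T2-4, T4-6, T6-8 and T8-10, with 2 samples each, and the 2 other samples are asynchronous. The cells were hTERT-RPE1, a human cell line derived from the pigmented layer of the retina that carries added telomerase and so keeps dividing, and input RNA is the total RNA from which a nascent fraction was taken elsewhere in the study. The window cells had been synchronised with 400 uM mimosine for 22 h, and the labels do not say in what unit the window numbers are. The protocol text is the same for all 12 samples and does not say how asynchronous cells were handled, so mimosine and S phase cannot be told apart in any comparison below. That text also names transfection with LNA GapmeRs, antisense oligos for knocking down lncRNAs, and no title among the 12 names a knockdown. Nothing in the labels says that the 2 samples of a group were grown apart, and the p-values therefore measure only how far these samples differ, which may be technical.

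Mimosine is a plant amino acid that binds iron and holds cells at the border of DNA replication. Iron is a cofactor of the prolyl hydroxylases that mark hypoxia-inducible factors for destruction, and of ribonucleotide reductase, which makes the precursors of DNA. The p53 protein switches on inhibitors of the cell cycle when cells are stressed. In cycling cells, genes for replication enzymes peak near the entry into S phase, and histone messages are made while DNA is copied. Genes for mitosis are kept low until G2 by complexes that sit at CHR elements, and their promoters often hold CCAAT boxes too.

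The promoters of 3 genes that lead groups described below are shown. A stretch could be shown only if its 150 bases held a motif searched for, so a motif in each is no finding. P4HA2 and CCNE1 were tried as well and gave no such stretch, and NDRG1 had no promoter entry. CA9, the cell-surface carbonic anhydrase IX, was the gene with the widest difference among those called. PLK1, a mitotic kinase, and CDC20, which activates the anaphase-promoting complex, were the G2/M genes with the lowest window levels relative to asynchronous cells. The stretches end at the base before the annotated start and come from RefSeq (GRCh38.p14), at chr9:35673778-35673927, chr16:23678739-23678888 and chr1:43358831-43358980, all on the plus strand. Capitals mark the core of the hypoxia response element in CA9 (ACGTG, read here on the opposite strand as CACGT), and the CHR motif (TTTGAA) and CCAAT boxes in the other 2.
CA9: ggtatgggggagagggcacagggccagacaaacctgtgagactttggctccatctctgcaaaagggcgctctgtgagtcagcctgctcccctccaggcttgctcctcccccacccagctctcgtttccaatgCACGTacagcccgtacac
PLK1: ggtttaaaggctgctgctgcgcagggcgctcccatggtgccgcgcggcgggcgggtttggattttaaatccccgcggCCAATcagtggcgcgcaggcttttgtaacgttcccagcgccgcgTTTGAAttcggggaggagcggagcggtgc
CDC20: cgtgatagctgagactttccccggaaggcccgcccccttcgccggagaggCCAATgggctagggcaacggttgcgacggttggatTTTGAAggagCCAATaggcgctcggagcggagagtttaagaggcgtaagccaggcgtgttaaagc

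The 250 bases before the start were searched on both strands for 4 motifs, and a match is a description of the letters, not a binding site. The hypoxia response element core (ACGTG or GCGTG, which the E-box CACGTG contains) was present in 18 of the 20 promoters found for tested hypoxia genes (90.0%). It was also present in 58.3% of the 7593 promoters found for tested genes and in 43.1% of all 27305 promoters in the table. The CHR motif was present in 22 of 40 promoters of G2/M genes (55%), against 8.1% of the promoters of tested genes and 13.6% of all promoters. CCAAT was present in 32 of those 40 (80.0%), against 35.8% and 33%. E2F motifs (TTCCCGC or TTGGCGC) were present in 21 of 39 promoters of G1/S genes (53.8%), against 13.2% and 7.95%. In genes with all 10 windows above, or all below, both asynchronous libraries, the hypoxia core was in 50.8% and 62.6% of promoters. CHR was in 7.69% and 9.66% of these, CCAAT in 37.2% and 36.7%, and E2F in 13.8% and 15.8%.

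The window libraries split by replicate number more than by window. Principal component 1 held 72.7% of the variance and placed the 5 windows numbered 1 between -65.7 and -49.8, and the 5 windows numbered 2 between 41.7 and 63. The asynchronous libraries lay between these sets, at 15 and -4.88. Principal component 2, with 10.5% of the variance, placed the windows between -20.5 and 6.27 and the asynchronous libraries at 39.5 and 41.5.

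**Figure D1:**
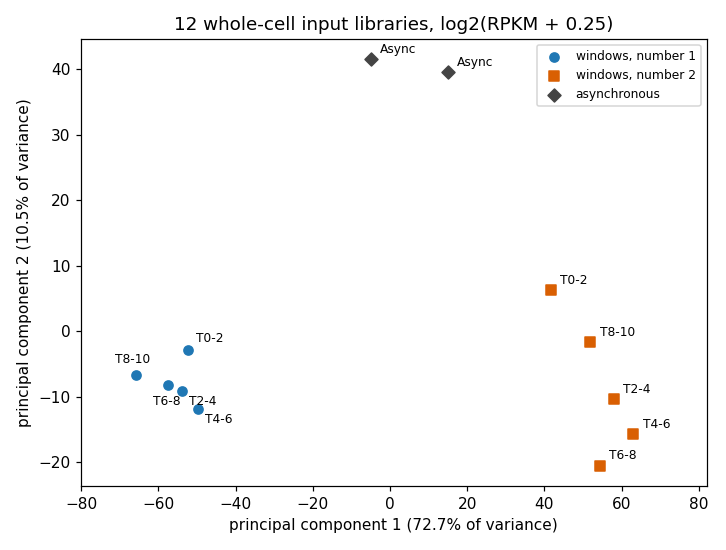
First 2 principal components of the 12 libraries, from log2(RPKM + 0.25) of 9825 genes (circles, windows numbered 1; squares, windows numbered 2; diamonds, asynchronous). Component 1 (72.7% of variance) separates the windows by replicate number, and component 2 (10.5%) separates the windows from asynchronous cells.

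Across genes, windows of the same number correlated at 0.954 to 0.984 (number 1) and 0.930 to 0.975 (number 2), and windows of different numbers at 0.653 to 0.825, against 0.974 for the asynchronous pair. Between the 2 libraries of 1 window, 30.5% to 43.4% of genes differed by more than 2-fold, against 1.54% between the asynchronous libraries. NEAT1, a nuclear lncRNA chosen as an example after its values were seen, had 7.37 to 15.9 RPKM in windows numbered 1 and 67.1 to 114 RPKM in windows numbered 2, against 36 and 31.8 RPKM in asynchronous cells. Recovered depth was 18.6 to 23.4 M reads in windows numbered 1 and 7.84 to 14.3 M in windows numbered 2, against 20.1 and 10.3 M in asynchronous cells. Genes at 0 RPKM numbered 486 to 764 in windows numbered 1, 27 to 205 in windows numbered 2, and 228 and 247 in asynchronous cells. The asynchronous libraries differed in depth but little in genes at 0. Among the windows, both depth and genes at 0 moved with the number, and their part in the split was not tested. Most list medians below are therefore given for each number set as well. RPKM here is per kilobase of the whole gene span, so levels are compared between libraries and not between genes. In bulk RNA, fewer cells of a kind and less RNA per cell cannot be told apart.

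Most defining genes of pigmented retinal epithelium were at or near 0. The pigment epithelium genes RPE65, TYR, TYRP1, DCT, BEST1 and PMEL were at 0.307 RPKM or lower in all 12 libraries, and OTX2, a transcription factor of that tissue, had 0.732 to 2.64 RPKM. VIM, an intermediate filament of cultured cells, had 134 to 444 RPKM in the windows, against 245 and 327 RPKM in asynchronous cells, and KRT18 had 4.90 to 25.2 RPKM, against 13.8 and 18.1 RPKM. Of 23 markers of other cell types, 12 had rows and none passed the filter on low values; their summed level was 0.238 to 2.97 RPKM in the windows, against 0.416 to 0.615 RPKM in asynchronous cells.

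The mean of the 5 windows was compared with asynchronous cells to ask which RNAs of the whole-cell pool were higher or lower during S phase. With limma on log2(RPKM + 0.25) and Benjamini-Hochberg adjustment, 3 of 9825 genes were called (0.0305%), all higher in the windows. The genes were CA9, NDRG1, a cytoplasmic protein induced by hypoxia and by iron chelators, and THSD1, a membrane protein with a thrombospondin domain. At an unadjusted p under 0.05 there were 865 genes, 347 higher and 518 lower. The fit counts the 10 windows as independent, although windows of the same number deviated together. The SEs and p-values of this fit make no allowance for the number sets, and the size of this effect was not tested.

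CA9 had 16.5, 15.1, 11.8, 12.9 and 7.14 RPKM in windows T0-2 to T8-10 numbered 1, and 29.4, 33.7, 22.7, 15.8 and 16.5 RPKM in those numbered 2, against 0.176 and 0.491 RPKM in asynchronous cells. All 10 windows lay far above both asynchronous libraries, and windows numbered 2 lay above those numbered 1. Its log2 difference was 4.91 ± 0.48 (SE, 10 and 2 libraries; limma adjusted p = 0.0204).

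NDRG1 had 19.8, 13.9, 8.54, 4.48 and 1.45 RPKM in windows T0-2 to T8-10 numbered 1, and 25.5, 15.3, 6.37, 2.56 and 2.00 RPKM in those numbered 2, against 0.451 and 0.550 RPKM in asynchronous cells. The early windows were highest, the late ones lowest, and the groups did not overlap. Its difference was 3.25 ± 0.29 (adjusted p = 0.0204).

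THSD1 had 0.784, 1.09, 1.58, 1.77 and 1.6 RPKM in windows numbered 1, and 0.752, 1.33, 1.81, 1.83 and 1.84 RPKM in those numbered 2, against 0.240 and 0.268 RPKM in asynchronous cells. Here T0-2 was the lowest window in both number sets, and the sets lay close to each other. Its difference was 1.70 ± 0.17 (adjusted p = 0.0204). The calls depended on single libraries: leaving out 1 library at a time left 0 to 2 genes called, with 0 in 9 of the 12 cases, among them each asynchronous library. A pseudocount of 1 RPKM also left 0 genes.

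**Figure D2:**
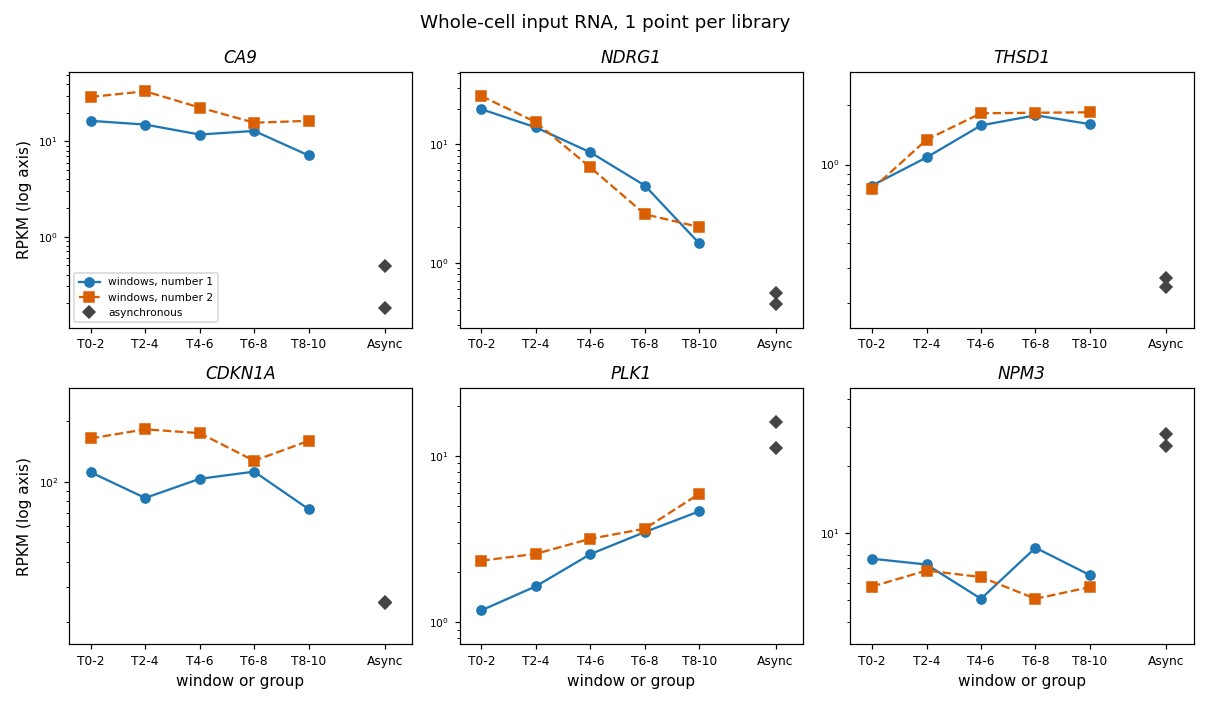
RPKM of 6 genes in each library (log axis), by window and number, with asynchronous cells at the right (circles and full lines, windows numbered 1; squares and dashed lines, windows numbered 2; diamonds, asynchronous). CA9, NDRG1, THSD1 and CDKN1A lie above both asynchronous libraries in all 10 windows, and PLK1 and NPM3 lie below.

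A gene was also counted where all 10 windows lay above both asynchronous libraries, which held for 435 genes (4.43%), or below both, which held for 756 genes (7.69%). These counts use no estimate of spread and make no allowance for the number sets. Over all tested genes the median log2 difference was -0.08. Medians of gene lists below stand beside that value, and counts of genes above or below stand beside 4.43% and 7.69%.

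Of 26 tested p53 targets, none was called, 16 had all 10 windows above both asynchronous libraries (61.5%, against 4.43% of all genes) and none had all below. Their median difference was 1.17, with 0.93 in windows numbered 1 and 1.22 in windows numbered 2. CDKN1A, the p21 inhibitor of cyclin-dependent kinases, had 112, 83.1, 104, 112 and 73 RPKM in windows numbered 1 and 164, 183, 175, 127 and 160 RPKM in those numbered 2, against 25.2 and 24.8 RPKM in asynchronous cells. Both sets were well above the asynchronous pair, and windows numbered 2 were above those numbered 1. Its difference of 2.30 ± 0.43 did not pass (limma adjusted p = 0.13).

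BTG2, an antiproliferative cofactor, had 3.96, 7.61 and 11.2 RPKM as the lowest, median and highest window, against 0.892 and 1.11 RPKM in asynchronous cells, and had the smallest p of the p53 targets (2.54 ± 0.30, adjusted p = 0.064). MDM2, the ubiquitin ligase that removes p53, had 9.21, 14.3 and 25.7 RPKM, against 3.17 and 3.65 RPKM. GDF15, a secreted stress hormone, had 1.43 to 4.76 RPKM in windows numbered 1 and 3.68 to 12.2 RPKM in windows numbered 2, against 0.168 and 0.181 RPKM. For none of the 3 did the groups overlap. TIGAR, a phosphatase that slows glycolysis, was the steadiest, at 1.20, 1.44 and 1.63 RPKM, against 0.545 and 0.676 RPKM. PURPL, a lncRNA that p53 induces, had 0.333, 0.655 and 1.54 RPKM, against 0.0226 and 0.0602 RPKM, and did not pass either (1.69 ± 0.26, adjusted p = 0.11).

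Hypoxia-response genes held 2 of the 3 called genes, CA9 and NDRG1, among 23 tested. All 10 windows lay above both asynchronous libraries for 10 of the 23 (43.5%, against 4.43% of all genes) and below for none. The median difference was 0.93, with 0.66 in windows numbered 1 and 0.86 in windows numbered 2. P4HA2, a collagen prolyl hydroxylase subunit, had 1.58, 3.32 and 4.83 RPKM as the lowest, median and highest window, against 0.820 and 0.896 RPKM in asynchronous cells. PLOD2, a collagen lysyl hydroxylase, had 1.83, 3.97 and 6.59 RPKM, against 1.06 and 1.53 RPKM. Both were above in every window, and neither passed (adjusted p = 0.13 and 0.27). BNIP3L, a mitophagy receptor, differed with the number: it had 5.94 to 9.35 RPKM in windows numbered 1 and 0.978 to 2.89 RPKM in windows numbered 2, against 0.580 and 0.582 RPKM in asynchronous cells.

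Among 21 glycolysis genes, 4 had all windows above and 1 had all below (19% and 4.76%, against 4.43% and 7.69% of all genes). The median difference was 0.45, with 0.69 in windows numbered 1 and 0.44 in windows numbered 2. PGK1, which makes ATP from bisphosphoglycerate, had 30.6 to 42 RPKM in windows numbered 1 and 8.20 to 20.5 RPKM in windows numbered 2, against 4.20 and 4.61 RPKM in asynchronous cells. PFKM, the muscle form of phosphofructokinase, was the gene below, at 0.843, 0.955 and 1.52 RPKM, against 2.37 and 2.25 RPKM. Its groups did not overlap, and its difference of -1.0 ± 0.18 did not pass (adjusted p = 0.12). Iron uptake and storage genes had a median of -0.08 over 13 tested (0.19 in windows numbered 1 and -0.12 in windows numbered 2). All windows were above for 1 and below for 1 (7.69% each, against 4.43% and 7.69% of all genes).

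The alpha-arrestins help clear glucose transporters and receptors from the cell surface. All windows were above for 2 of 5 tested genes (40%, against 4.43% of all genes). Their median was 1.40 in windows numbered 1 and 0.83 in windows numbered 2, and 2 of the 5 were higher in both number sets. ARRDC1, ARRDC2 and ARRDC3 had differences of 0.09, 0.25 and 0.85 and did not pass. TXNIP, the thioredoxin inhibitor of that family, had 55.2 to 140 RPKM in windows numbered 1 and 25.7 to 59.9 RPKM in windows numbered 2, against 9.51 and 13.7 RPKM in asynchronous cells. ARRDC4 had 0.396, 0.955 and 1.44 RPKM as the lowest, median and highest window, against 0.241 and 0.339 RPKM. The difference was 2.53 ± 0.69 for TXNIP and 1.11 ± 0.32 for ARRDC4, and neither passed (adjusted p = 0.27 and 0.31).

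Of 19 tested nucleolar genes and MYC, which serve or drive ribosome assembly, none was called, 13 had all 10 windows below both asynchronous libraries (68.4%, against 7.69% of all genes) and none had all above. The median difference was -1.09, with -0.94 in windows numbered 1 and -1.13 in windows numbered 2, and all 19 were below in the mean of each number set. NPM3, a histone chaperone of the nucleolus, had 7.69, 7.25, 5.09, 8.62 and 6.50 RPKM in windows numbered 1 and 5.77, 6.81, 6.37, 5.09 and 5.74 RPKM in those numbered 2, against 24.8 and 28 RPKM in asynchronous cells. The windows lay close together whatever their number, all below the asynchronous pair. Its difference was -2.0 ± 0.29 and missed the threshold (adjusted p = 0.090).

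NCL, or nucleolin, had 9.25, 13.7 and 19 RPKM as the lowest, median and highest window, against 30.5 and 28 RPKM in asynchronous cells. MYC, the transcription factor, had 4.48, 6.19 and 9.23 RPKM, against 15.7 and 11.5 RPKM. NOP2, an rRNA methyltransferase, had 1.21, 2.35 and 4.51 RPKM, against 7.66 and 5.79 RPKM. No window of the 3 genes reached either asynchronous library. Among genes with all windows below and a mean of at least 1 RPKM, the 15 with the smallest p were SNHG25, HES1, GPATCH4, NPM3, PLK1, LIF, IMP4, POLR1E, PFKM, AIMP2, CNDP2, SMYD5, TWNK, RNASEH1-AS1 and PDCD11. IMP4 (-1.68 ± 0.29) and PDCD11 (-1.27 ± 0.24) act in small-subunit processing and POLR1E (-1.30 ± 0.22) is a subunit of RNA polymerase I, and none passed (adjusted p = 0.12, 0.13 and 0.12). TWNK, the helicase of mitochondrial DNA, had 1.67 to 3.03 RPKM, against 6.32 and 5.53 RPKM.

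Hosts of snoRNAs, small RNAs that guide the modification of rRNA, had a median of -1.07 over 12 tested genes, with -0.99 in windows numbered 1 and -1.17 in windows numbered 2. All windows were below for 8 of the 12 (66.7%, against 7.69% of all genes). SNHG16 had 1.53, 2.87 and 5.18 RPKM as the lowest, median and highest window, against 8.38 and 9.55 RPKM in asynchronous cells. ZFAS1 had 1.93, 3.26 and 4.30 RPKM, against 7.67 and 8.98 RPKM. SNHG25, a host outside the list, had 0.915, 1.94 and 3.15 RPKM, against 8.40 and 8.79 RPKM, and the smallest p of the genes with all windows below and a mean of at least 1 RPKM (-2.05 ± 0.26, adjusted p = 0.077). Counting by strand is not stated, so reads of ZFAS1 and of genes that overlap it could not be told apart.

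Ribosomal protein genes differed between the number sets. Their median difference was -0.53 over 63 tested genes, with -0.05 in windows numbered 1 and -1.07 in windows numbered 2. Of the 63, 10 had all windows below (15.9%, against 7.69% of all genes). RPS23 was one of them, at 7.18, 9.48 and 19.8 RPKM, against 35.5 and 37.4 RPKM in asynchronous cells. EEF1A1, the translation elongation factor, had 30.3 to 55.8 RPKM in windows numbered 1 and 8.79 to 21.7 RPKM in windows numbered 2, against 54.6 and 83.8 RPKM in asynchronous cells, so its windows numbered 1 overlapped the asynchronous range. The list of translation factors it belongs to had a median of -0.51 over 10 tested, with -0.16 in windows numbered 1 and -1.11 in windows numbered 2, and 2 below in all windows. Near-identical pseudogenes of ribosomal proteins can share their reads.

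**Figure D3:**
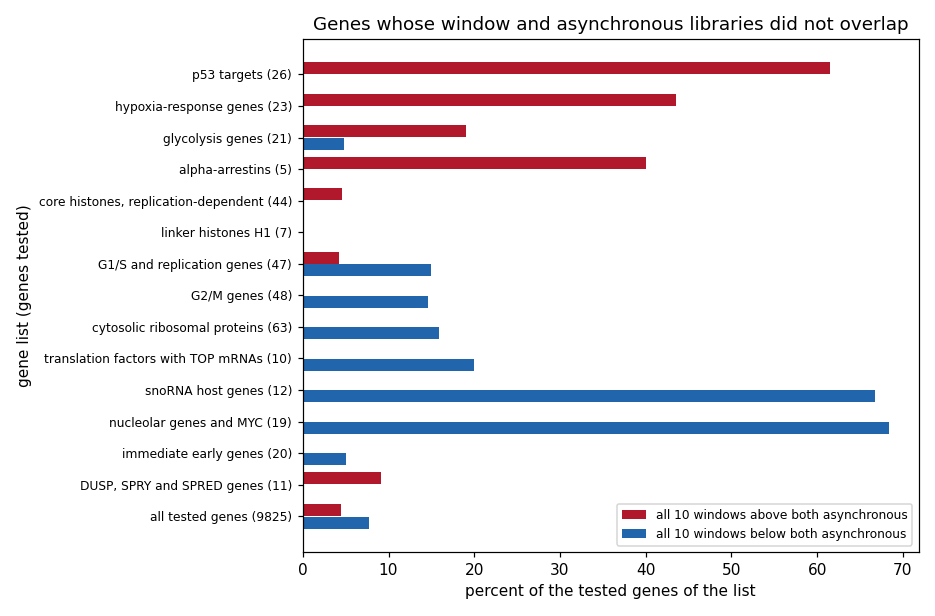
Percent of the tested genes of each list whose 10 windows all lay above both asynchronous libraries (red) or all below (blue), with the number tested in brackets and all tested genes at the bottom. The p53 targets (61.5%) and hypoxia-response genes (43.5%) have the longest red bars among lists of over 5 genes, and nucleolar genes (68.4%) and snoRNA hosts (66.7%) the longest blue ones, beside 4.43% and 7.69% of all genes.

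G2/M genes had a median difference of -0.54 over 48 tested, but the number sets differed, with -0.01 in windows numbered 1 and -1.15 in windows numbered 2. All windows were below for 7 of the 48 (14.6%, against 7.69% of all genes) and above for none. PLK1 had 1.18, 1.64, 2.56, 3.48 and 4.64 RPKM in windows T0-2 to T8-10 numbered 1 and 2.34, 2.57, 3.17, 3.64 and 5.91 RPKM in those numbered 2, against 15.9 and 11.1 RPKM in asynchronous cells. It was lowest at T0-2 and highest at T8-10 in both sets, and no window reached the asynchronous range. Its difference was -2.13 ± 0.31 (adjusted p = 0.090).

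CDC20 had 6.85, 10.8, 11.3, 24 and 25.9 RPKM in windows numbered 1 and 5.32, 4.58, 3.99, 4.93 and 12.8 RPKM in those numbered 2, against 52.4 and 53.4 RPKM in asynchronous cells. Its windows were all below the asynchronous pair, with T8-10 the highest in each set (-2.53 ± 0.64, adjusted p = 0.24). TPX2, a spindle assembly factor, had 2.96, 3.77 and 5.63 RPKM as the lowest, median and highest window, against 8.23 and 7.40 RPKM. CDCA3, which triggers mitotic entry, had 2.78, 4.1 and 7.68 RPKM, against 10.3 and 9.41 RPKM.

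G1/S and replication genes had a median of -0.10 over 47 tested, with -0.06 in windows numbered 1 and -0.27 in windows numbered 2. All windows were above for 2 (4.26%, close to the 4.43% of all genes) and below for 7 (14.9%, against 7.69% of all genes). MCM5, a subunit of the replicative helicase, had 2.88, 5.01 and 6.17 RPKM as the lowest, median and highest window, against 10.5 and 9.33 RPKM in asynchronous cells. MCM7 of the same helicase had 11.2, 23.2 and 30.2 RPKM, against 50.3 and 45.4 RPKM. UNG, which removes uracil from DNA, had 1.02, 1.58 and 2.63 RPKM, against 3.13 and 3.11 RPKM. All 3 lay below in every window, and none passed (adjusted p = 0.27, 0.33 and 0.19).

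Replication-dependent core histones had a median of 0.59 over 44 tested genes, with 1.52 in windows numbered 1 and -0.20 in windows numbered 2, and 2 had all windows above (4.55%, close to the 4.43% of all genes). HIST1H3D, a histone H3 gene, had 8.73, 35.2, 20.2, 28.7 and 9.45 RPKM in windows numbered 1 and 9.61, 34.8, 21.1, 24.3 and 20.3 RPKM in those numbered 2, against 3.50 and 3.77 RPKM in asynchronous cells. T0-2 was lowest and T2-4 highest in both sets, which lay close to each other except at T8-10 (2.31 ± 0.32, adjusted p = 0.082). Copies of histone genes are near identical, so single values are uncertain, and no count by strand was stated.

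Immediate early genes had a median of -0.23 over 20 tested, with 1 below in all windows and none above, and the number sets lay on opposite sides of asynchronous cells (-0.50 in windows numbered 1 and 0.11 in windows numbered 2). DUSP, SPRY and SPRED genes, the feedback inhibitors of growth factor signalling, had -0.62 over 11, with -0.40 in windows numbered 1 and -0.56 in windows numbered 2. HES1, a repressor downstream of Notch, had 6.65, 2.00, 1.51, 1.95 and 2.04 RPKM in windows numbered 1 and 7.55, 2.31, 1.99, 1.59 and 2.47 RPKM in those numbered 2, against 9.17 and 8.01 RPKM in asynchronous cells. T0-2 came near the asynchronous pair and the later windows lay well below (-1.65 ± 0.22, adjusted p = 0.078). The cytokines LIF and CSF2 stood on opposite sides of asynchronous cells, and neither passed (adjusted p = 0.12 and 0.14). LIF had 26.6, 38.9 and 97.7 RPKM as the lowest, median and highest window, against 160 and 154 RPKM, and CSF2 had 1.87, 4.02 and 14.4 RPKM, against 0.437 and 0.935 RPKM.

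Medians of the other lists lay between -0.17 and 0.36, as for ATF4 targets (-0.17, 19 tested), polyamine genes (-0.12, 10), sterol synthesis genes (-0.13, 18), NRF2 targets (-0.11, 10), abundant nuclear lncRNAs (-0.11, 7), genes of the RPE1 line and pigment epithelium (-0.10, 7), ER chaperones (-0.10, 16), NF-kB and cytokine genes (0.00, 18), histone variants made outside S phase (0.10, 8), collagen and matrix genes (0.15, 19) and interferon-stimulated genes (0.36, 16). No member of these lists was called. In several of them the number sets had opposite signs, with 0.35 in windows numbered 1 and -0.36 in windows numbered 2 for polyamine genes, 0.37 and -0.43 for ER chaperones, 0.21 and -0.18 for NF-kB and cytokine genes, and -0.56 and 0.06 for abundant nuclear lncRNAs. The 15 mitochondrially encoded genes listed had no row in the table.

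No long non-coding RNA was called for windows against asynchronous cells. Of 351 tested lincRNAs, 31 had all windows above (8.83%, against 4.43% of all genes) and 19 all below (5.41%, against 7.69%). Their median was -0.14 in windows numbered 1 and 0.40 in windows numbered 2. AL590004.3 had 1.87, 3.01 and 4.26 RPKM as the lowest, median and highest window, against 0.288 and 0.370 RPKM in asynchronous cells (2.45 ± 0.33, adjusted p = 0.078). FAM111A-DT, a divergent transcript of FAM111A, had 0.899, 2.10 and 2.62 RPKM, against 0.465 and 0.616 RPKM (1.35 ± 0.18, adjusted p = 0.078). Of the lncRNAs that the study knocked down, LUCAT1 is annotated as antisense, so that its reads could not be told apart from those of its partner. It had 0.919, 0.507, 0.510, 0.388 and 0.274 RPKM in windows T0-2 to T8-10 numbered 1 and 0.780, 0.550, 0.618, 0.477 and 0.199 RPKM in those numbered 2, against 0.187 and 0.196 RPKM in asynchronous cells. T0-2 was its highest window and T8-10 its lowest, just above the pair in number 2 (0.75 ± 0.18, adjusted p = 0.20). MANCR, the files' name for LINC00704, had 2.89 to 3.80 RPKM in windows numbered 1 and 1.02 to 2.36 RPKM in windows numbered 2, against 1.66 and 1.92 RPKM, on both sides of the pair. MIAT was below the filter on low values.

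**Figure D4:**
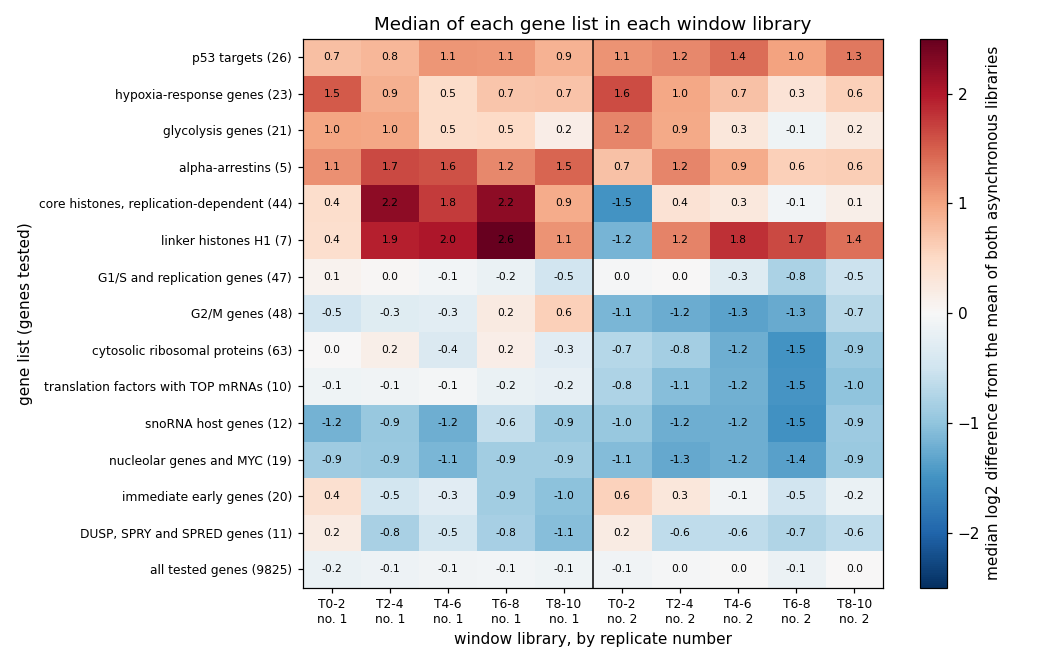
Median log2 difference of each gene list (rows, number tested in brackets) in each window library (columns, number 1 left of the line, number 2 right), from the mean of both asynchronous libraries. The p53 and hypoxia rows are positive and the nucleolar and snoRNA host rows negative in all 10 columns, whereas core histones, G2/M genes and ribosomal proteins differ between the number sets.

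The windows were then compared with each other. Against asynchronous cells, NDRG1 was the 1 gene called at T0-2 (0.0102% of genes; 4.92 ± 0.37, adjusted p = 0.0074) and the 1 gene called at T2-4 (0.0102%; 4.31 ± 0.37, adjusted p = 0.021), and no gene was called at T4-6, T6-8 or T8-10, where 626, 639 and 433 genes had an unadjusted p under 0.05. A moderated F-test over the 5 window means called no gene (126 at an unadjusted p under 0.05, smallest adjusted p = 0.48). Because same-numbered windows deviated together, the F-test was repeated with the number as a block over the 10 window libraries alone, which called 320 genes (3.26%). Of these 320, 144 were highest at T0-2 and 93 at T8-10, while 34, 26 and 23 were highest at T2-4, T4-6 and T6-8. With the block over all 12 libraries the F-test called 0 genes, so the 320 rest on fitting the windows alone. The blocked fit was added after the data were seen, and all values of change among windows below rest on it.

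Lists differed in how many members changed among the windows in the blocked test, beside 3.26% of all genes. That test called 5 of 7 linker histones, 12 of 44 core histones, 9 of 23 hypoxia-response genes, 6 of 21 glycolysis genes, 6 of 11 DUSP, SPRY and SPRED genes, 6 of 20 immediate early genes, 9 of 47 G1/S genes and 8 of 48 G2/M genes. Called in the same test were 2 of 26 p53 targets, 1 of 19 nucleolar genes, none of 12 snoRNA hosts and none of 63 ribosomal protein genes. No count of a list was tested against the 3.26% of all genes, and counts of 2 or fewer are too small for a comparison. By gene type, 28 of 351 lincRNAs and 8 of 282 antisense genes were called, likewise not tested against that share. LUCAT1 was one of the antisense genes (adjusted p = 0.020), and its T8-10 minus T0-2 was -1.18 ± 0.16 (adjusted p = 0.0026).

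HK2, the hexokinase of growing and hypoxic cells, had 7.58, 3.32, 1.99, 1.23 and 1.23 RPKM in windows T0-2 to T8-10 numbered 1 and 11, 5.50, 1.79, 1.27 and 1.67 RPKM in those numbered 2, against 2.29 and 2.12 RPKM in asynchronous cells. Early windows were above the asynchronous pair and late ones below. T8-10 minus T0-2 was -2.48 ± 0.23 (blocked limma adjusted p = 0.00039; 944 genes, or 9.61%, passed that contrast, 577 higher and 367 lower at T8-10). NDRG1 dropped by 3.54 ± 0.32 in the same contrast (adjusted p = 0.00036). The median of the hypoxia list against asynchronous cells was 1.75, 1.14, 0.61, 0.46 and 0.62 from T0-2 to T8-10, and that of the glycolysis list 1.24, 0.89, 0.27, 0.16 and 0.06. PFKFB4, which makes the activator of phosphofructokinase, had 4.56, 1.6, 1.12, 1.01 and 0.760 RPKM in windows numbered 1 and 7.32, 3.18, 3.21, 2.37 and 2.02 RPKM in those numbered 2, against 0.606 and 0.675 RPKM.

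SPRY4, an inhibitor of receptor tyrosine kinase signalling, had 4.68, 1.20, 1.37, 0.560 and 0.476 RPKM in windows numbered 1 and 6.42, 1.32, 1.49, 0.900 and 0.907 RPKM in those numbered 2, against 5.26 and 4.72 RPKM in asynchronous cells. T0-2 lay at the asynchronous level and all later windows below it (T8-10 minus T0-2 -2.65 ± 0.18, adjusted p = 9.4e-05). DUSP6, a phosphatase of ERK, was also highest at T0-2, with a wider gap between numbers, at 16.3, 4.59, 3.62, 2.92 and 2.61 RPKM in windows numbered 1 and 3.18, 1.29, 0.727, 0.557 and 0.781 RPKM in those numbered 2, against 4.02 and 3.37 RPKM. The list's median was 0.08 at T0-2 and -0.65, -0.61, -0.93 and -0.77 in the later windows.

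CCNE1, the cyclin E1 that starts S phase, had 2.64, 3.42, 1.73, 0.857 and 0.516 RPKM in windows numbered 1 and 1.75, 1.87, 0.971, 0.463 and 0.364 RPKM in those numbered 2, against 0.707 and 0.780 RPKM in asynchronous cells. It was highest at T2-4 and lowest at T8-10 in both sets (T8-10 minus T0-2 -1.81 ± 0.15, adjusted p = 0.00034). UNG, of the same list, was highest at T2-4 as well, at 2.63 and 2.18 RPKM, and lowest at T6-8 or T8-10. The median of the G1/S list was 0.01, 0.08, -0.09, -0.41 and -0.53 from T0-2 to T8-10.

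HIST1H1D, a linker histone that packs nucleosomes, had 13.8, 110, 150, 130 and 37.4 RPKM in windows numbered 1 and 2.19, 36.3, 60.5, 59.9 and 33.6 RPKM in those numbered 2, against 9.52 and 5.67 RPKM in asynchronous cells. The middle windows were highest in both sets and T0-2 lowest, and in windows numbered 2 T0-2 lay below the asynchronous pair (blocked F-test, adjusted p = 0.0061). The linker histone HIST1H1B also passed that test (adjusted p = 0.020). The median of the 7 linker histones was -0.38, 1.59, 1.88, 2.04 and 1.14 from T0-2 to T8-10. At T0-2 it was 0.43 in number 1 and -1.16 in number 2. For core histones the sets differed throughout: the median was 0.44, 2.24, 1.76, 2.23 and 0.92 in windows numbered 1 and -1.50, 0.37, 0.26, -0.06 and 0.15 in windows numbered 2. T0-2 was the lowest window in both sets, above asynchronous cells in number 1 and below them in number 2.

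PIF1, a helicase that unwinds G-quadruplexes, had 0.144, 0.188, 0.180, 0.765 and 1.31 RPKM in windows numbered 1 and 0.338, 0.709, 0.525, 1.06 and 3.20 RPKM in those numbered 2, against 2.73 and 2.39 RPKM in asynchronous cells. It was highest at T8-10 in both sets, and in number 2 it lay above both asynchronous libraries there (T8-10 minus T0-2 2.27 ± 0.19, adjusted p = 0.00034). PLK1 had 1.51 ± 0.22 in that contrast (adjusted p = 0.0036) and CDC20 1.55 ± 0.38 (adjusted p = 0.029). The median of the G2/M list was -0.48, -0.30, -0.26, 0.22 and 0.60 from T0-2 to T8-10 in windows numbered 1. In windows numbered 2 it was -1.14, -1.24, -1.34, -1.27 and -0.70, so that T8-10 was the highest window in both sets and the earlier windows had no common order.

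**Figure D5:**
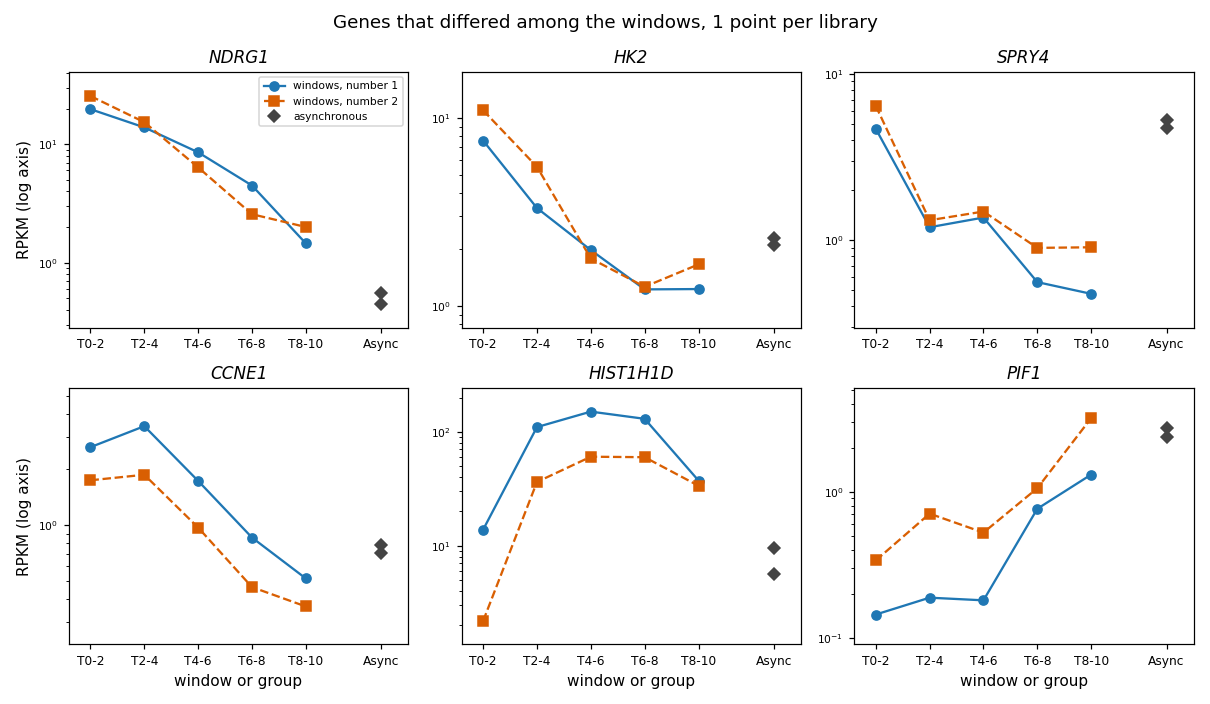
RPKM (log axis) of 6 genes called in the blocked F-test over the windows, by window and number, with asynchronous cells at the right. NDRG1, HK2 and SPRY4 are highest at T0-2, CCNE1 at T2-4, HIST1H1D at T4-6 and PIF1 at T8-10, in both number sets, except that number 2 of HIST1H1D is level between T4-6 and T6-8.

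The same contrast was read from 3 further tables of 12 libraries each, which have their own asynchronous libraries and were scaled separately, so values stand side by side with no test between tables. In nuclear input RNA 440 of 9633 genes were called (4.57%), in nuclear nascent RNA 440 of 9784 (4.50%) and in whole-cell nascent RNA 41 of 10096 (0.406%). CA9 had a difference of 3.73 ± 0.51 in nuclear input (adjusted p = 0.0095), 3.46 ± 0.40 in nuclear nascent (adjusted p = 0.0041) and 2.75 ± 0.67 in whole-cell nascent RNA (adjusted p = 0.12). NDRG1 and THSD1 were likewise called in both nuclear tables and not in whole-cell nascent RNA.

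Several genes that missed the threshold in whole-cell input RNA were called in the nuclear tables. CDKN1A had 2.18 ± 0.36 in nuclear input (adjusted p = 0.016) and 2.38 ± 0.37 in nuclear nascent RNA (adjusted p = 0.011), and MDM2 and BTG2 also passed in both. CDC20 had -1.98 ± 0.27 and -2.32 ± 0.21 (adjusted p = 0.0097 and 0.0013), and NPM3 -1.97 ± 0.31 and -1.93 ± 0.38 (adjusted p = 0.014 and 0.027). LUCAT1 was called in nuclear input (1.19 ± 0.18, adjusted p = 0.011) and not in nuclear nascent RNA (0.81 ± 0.30, adjusted p = 0.16). HES1 and LIF passed in none of the 3 tables: LIF had -0.73 ± 0.32 in nuclear input and 0.55 ± 0.41 in whole-cell nascent RNA. SPRY4, at -1.65 ± 0.25 in whole-cell input, had 0.67 ± 0.33 in nuclear input RNA and 0.29 ± 0.41 in nuclear nascent RNA.

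Of the genes with all whole-cell input windows above asynchronous cells and a test in the other table, 94.0% had a positive difference in nuclear input RNA (345 of 367), where 49.9% of all genes did. In nuclear nascent RNA the share was 96.8% (360 of 372, against 47% of all genes) and in whole-cell nascent RNA 92.9% (380 of 409, against 57.3%). Of those with all windows below, 89.2%, 94.4% and 83.6% had a negative difference in nuclear input, nuclear nascent and whole-cell nascent RNA. Their background is the remainder of all genes, since 49.9%, 47% and 57.3% of all genes had a positive difference there, so the backgrounds differ. The genes with all windows above or all below are on the same side in both number sets by choice. Over all shared genes, the correlation across genes with the other table's difference depended on the number. It was 0.27 for windows numbered 1 and 0.64 for windows numbered 2 in nuclear input RNA (8951 genes), 0.27 and 0.69 in nuclear nascent RNA (8859 genes), and 0.70 and 0.13 in whole-cell nascent RNA (9138 genes); genes are not independent replicates. The sources used here do not say whether the 4 kinds of RNA came from the same cultures.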

How the data were processed

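RNA of whole cells was sequenced in 12 input samples. The values are RPKM that the authors deposited, 1 column per library. The submitters' processing notes name STAR 2.5.3, featureCounts 1.6.1, edgeR, Bowtie2 2.3.4.3 and HOMER 4.10.3 on hg38, with no role or order. Gene lengths in base pairs come from 3 further deposited tables, whose 15 library columns were not used. The lengths match gene spans (median ratio 1.00 to RefSeq spans). RPKM times length gave whole multiples of 1 step in at least 99.97% of values up to 200 reads (tolerance 0.05), for 79.0% of genes, and so the reads per library.

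Genes that reached 0.5 RPKM in 2 or more of the 12 libraries were kept (9825 of 19600). limma 3.58.1 (R 4.3.3) was fitted to log2(RPKM + 0.25) with 6 group means, a mean trend and Benjamini-Hochberg adjustment over all tested genes, called under 0.05; this scale understates changes of low genes. Samples were grouped by their titles. Differences between same-numbered libraries correlated at 0.878 to 0.939 over 10 pairs of windows and at -0.562 to -0.471 over the 5 pairs of a window with asynchronous cells, so the numbers pair the windows, and the asynchronous libraries were not treated as paired with them; whether their numbers are crossed was not tested.

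Named genes were drawn from the called genes and the first 15 by p on each side with a mean of at least 1 RPKM and no overlap. They also came from the 6 members of each list with the smallest p, the knocked-down lncRNAs and the leading genes of the blocked F-test. Not every gene under these rules is given. Those left out include CENPA, ENO2 and EGR3, whose windows did not all lie on the same side of asynchronous cells. PNRC1, GDNF and IER2, whose windows did, were left out as well. Members and lists were chosen with earlier results of these data known. Alternatives were other pseudocounts, filters, scalings, library weights, a replicate block, and leaving out each library. Figures were drawn with matplotlib in Python.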

Additional observations from a re-analysis of the deposited data

Results flagged for a closer look

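CCNE1 and HK2 stood on both sides of the asynchronous libraries. Both libraries of an early window lay above both asynchronous libraries and both libraries of a late window lay below, and the window differences from asynchronous cells spanned 2.03 for CCNE1 and 2.65 for HK2 on the log2 scale. In the mean of the 5 windows these changes offset each other (0.54 ± 0.31 for CCNE1 and 0.27 ± 0.26 for HK2).
The differences among windows passed with the replicate number as a block over the 10 window libraries, a fit added after the data were seen, in the F-test (limma adjusted p = 0.00060 for CCNE1 and 0.0012 for HK2) and for T8-10 against T0-2 (adjusted p = 0.00034 and 0.00039). Without the block no gene passed either test at the main settings, and 1 gene passed T8-10 against T0-2 with quantile normalization and 1 with median scaling. With the block over all 12 libraries the F-test called 0 genes.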

How the results depend on the processing

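The count of 3 called genes was 0 with a pseudocount of 1 RPKM, 6 with quantile normalization (5 higher, 1 lower), 1052 with weights per library (434 higher, 618 lower) and 191 with a replicate block (102 higher, 89 lower). It was 0 to 2 without each library in turn. The weights were 6.34 for asynchronous libraries and 0.567 to 0.941 for windows. Windows numbered 1 correlated at 0.823 to 0.866 with asynchronous 1 and 0.875 to 0.899 with asynchronous 2, and windows numbered 2 at 0.878 to 0.933 and 0.825 to 0.891, so the asynchronous numbers may be crossed, and the block over all 12 libraries is no paired analysis. With it, the F-test over the windows had 0 genes, T0-2 to T8-10 had 8, 2, 53, 15 and 6 genes called against asynchronous cells, and T8-10 against T0-2 had 5. With weights, T0-2, T2-4 and T4-6 had 41, 6 and 13, and with quantile normalization T4-6 had 2. T8-10 against T0-2 had 1 with quantile normalization and 1 with median scaling. Without each library in turn, T0-2 and T2-4 had 0 to 1. Over the 10 window libraries alone, which the numbers do pair, the block gave 320 genes in the F-test and 944 for T8-10 against T0-2. Windows numbered 1 alone, set against both asynchronous libraries, gave 5296 called genes and windows numbered 2 alone 3722, both added after the data were seen. These 2 counts take windows that deviate together as replicates of 1 condition, so their p-values are too small.

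Genes with all windows above numbered 821 with no filter and 274 with a filter of at least 1 RPKM. Without each library in turn they numbered 440 to 694 (the highest without asynchronous replicate 2), and genes with all windows below 763 to 1156 (the highest without asynchronous replicate 1). In windows numbered 1 alone 2621 lay above and 3587 below, and in windows numbered 2 alone 2169 and 2948. CA9, NDRG1 and THSD1 kept their sign under every alternative run. Values that passed no test could change sign, such as the core histone median, which was 1.61 with libraries numbered 1 alone and -0.37 with those numbered 2 alone. The cause of these shifts was not tested. With 2 libraries a group and a split by number, the depth of 7.84 to 23.4 M reads is not the only limit on precision.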
